A study of Sus scrofa with 18 samples.

Results

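The genes described here are 54 liver genes for the conjugation of reactive and foreign compounds, the handling of aldehydes, and the glutathione and thioredoxin systems. They were taken by gene symbol from the 6765 genes named on the array, by a rule that uses no difference between groups. The families were chosen with earlier results of these data known. They comprise 6 glutathione transferases, 3 glucuronosyl- and sulfotransferases (UGT2B31, SULT1A3 and SULT1E1), 11 aldehyde dehydrogenases, 6 aldo-keto reductases and alcohol dehydrogenases, 4 enzymes of glutathione synthesis and reduction, 7 glutathione peroxidases, 6 peroxiredoxins and 11 genes of the thioredoxin family. Where several probe sets named a gene, the gene was represented by the one with the highest mean log2 ratio over all arrays, so that 54 of 87 probe sets were used, and the others are described at the end.

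In the liver, the oxidising enzymes of phase I leave reactive groups on foreign compounds, steroids and lipids, and the transferases of phase II attach glutathione, glucuronic acid or sulfate to these groups so that the products can be exported. Glutathione is made by glutamate-cysteine ligase and glutathione synthetase, is spent by the glutathione transferases and peroxidases, and is returned to its reduced form by glutathione reductase. Thioredoxin and thioredoxin reductase form a parallel system that keeps the peroxiredoxins and other protein thiols reduced, and many genes of both systems are targets of the transcription factor NRF2.

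Liver was taken from piglets at postnatal day 21, and pools of hepatic RNA were hybridised to porcine expression arrays. Sow-fed piglets had been suckled by the sow, and the other piglets received a commercial infant formula, dairy-based or soy-based, from day 2 on. Each diet was measured in females and in males, with 3 pools in each of the 6 groups and 18 arrays in all. The labels name no breed and no number of animals per pool, and the p-values cover only how far pools of a group spread. Each value is the ratio deposited by the authors for 1 probe set on 1 array. Its divisor is not given in the sources used here, and the comparisons take it to be the same for all arrays of a probe set. They set arrays against each other for 1 gene, and put no level of a gene against that of another. The exception is that ratios of cell markers are summed. Such a sum is compared between groups only and can rest mostly on 1 gene.

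The 9 male arrays stood apart from the 9 female arrays. The upper quartile of the ratios ran from 0.884 to 0.945 on female arrays and from 0.515 to 0.608 on male arrays, and 18 spiked-in control probe sets were 6.93-fold higher on male arrays. The 3′ minus 5′ difference of the GAPDH control probe sets ran from -0.05 to 0.32 (log2) on female arrays and from -0.76 to -0.47 on male arrays. Sex and array processing cannot be told apart, so diets are compared within each sex and then averaged. The median SD within groups of the 54 genes was 0.164 (log2) in females and 0.341 in males, and 45 of the 54 had the larger SD in males. The precision of every value is limited by the number of arrays. All 11 measured hepatocyte markers had a median ratio of 1 over the arrays, within 0.002, as had 43 of the 54 genes (79.6%), against 21.8% of all probe sets. Probe sets whose median lay below 1 are called dim here.

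Between soy formula and sow milk, averaged over both sexes, 6 of the 54 genes passed the threshold, an adjusted p under 0.05 in limma over 23935 probe sets. GSTA4, UGT2B31 and TXNRD1 rose on soy formula, and TXNIP, PRDX4 and TXNDC17 fell. Of all probe sets, 3.28% passed in the same comparison, and of probe sets with a median ratio of 1 it was 10.3%, with 6 of the 43 members of that kind (14%). The share of the members thus lay above that of all probe sets and nearer to that of probe sets that were not dim. The number that rose was 5 without male soy formula replicate 2 and 1 without female sow milk replicate 2 or 3 or female soy formula replicate 2. The median size of the 54 log2 differences was 0.26, against 0.16 over the 6765 named genes and 0.13 over all probe sets. No such value is given for probe sets with a median ratio of 1. The median of the 54 differences was 0.05.

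**Figure D1:**
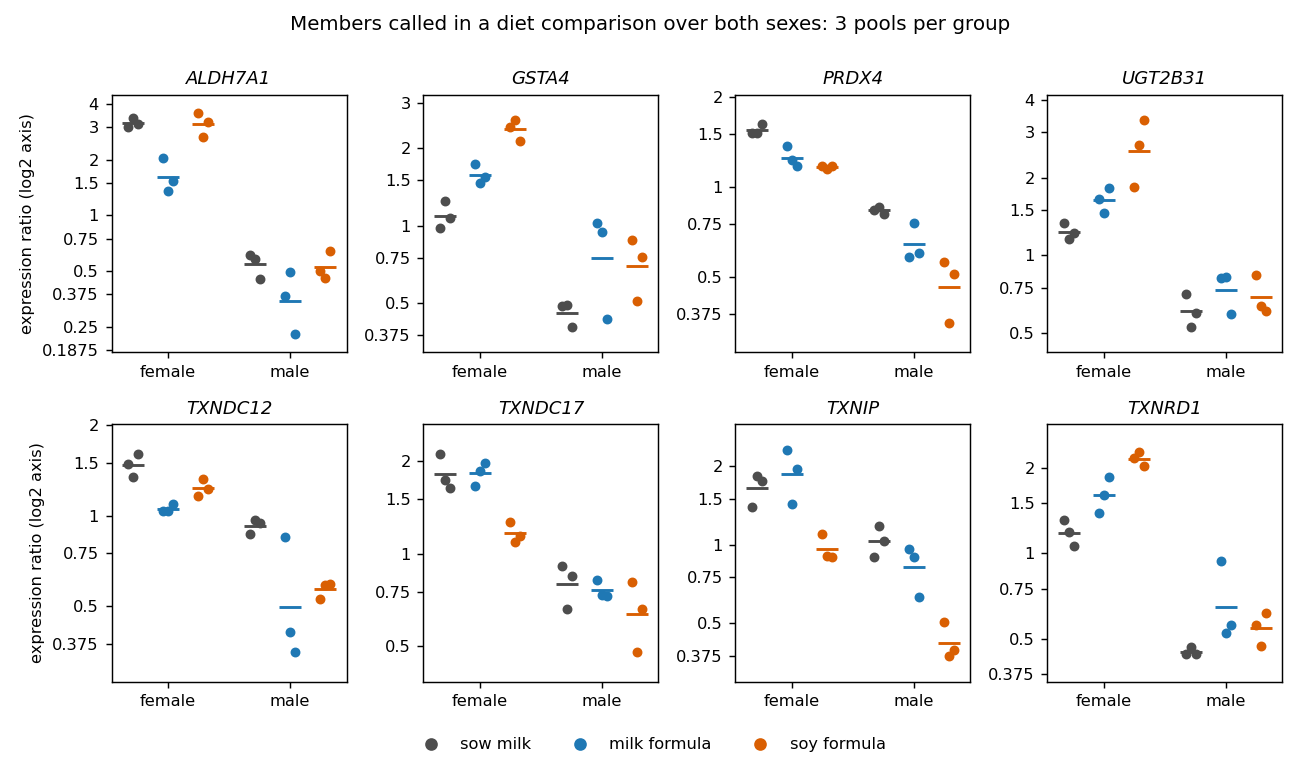
Deposited ratio (log2 axis) of the 8 genes past the threshold in a diet comparison over both sexes, by sex and diet; points are the RNA pools, 3 per group, and each bar is the mean of their log2 ratios. TXNIP was lowest on soy formula in both sexes, ALDH7A1 was lowest on milk formula in both sexes, and in each diet the male bar lay below the female bar for each of these genes.

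Among the conjugating enzymes, GSTA4 had the largest difference on soy formula. It encodes the glutathione transferase with a preference for 4-hydroxynonenal and other aldehydes formed from oxidised lipids. In females the pools of sow-fed piglets read 0.979, 1.24 and 1.07, those on milk formula 1.74, 1.46 and 1.54, and those on soy formula 2.41, 2.57 and 2.13. The 3 diets did not overlap in females, with milk formula in between. In males the pools read 0.486, 0.493 and 0.403 on sow milk, 1.02, 0.942 and 0.432 on milk formula, and 0.878, 0.508 and 0.752 on soy formula. Both formulas reached higher values than sow milk in males, and 1 pool on milk formula lay among the sow-fed pools. Over both sexes GSTA4 rose by 0.86 (SE 0.18, log2; adjusted p = 0.0115) on soy formula, or 1.81-fold, with 6 of 6 pools above the mean of the sow-fed pools of their sex. On milk formula the difference was 0.62 (SE 0.18; adjusted p = 0.169). The call on soy formula held in all 25 alternative fits, though the mean of both GSTA4 probe sets, of which the other is dim, gave 0.48.

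UGT2B31 encodes a glucuronosyltransferase of the family that conjugates steroids and phenols. In females it read 1.33, 1.16 and 1.22 on sow milk, 1.66, 1.45 and 1.82 on milk formula, and 1.84, 2.68 and 3.33 on soy formula, so that the 3 diets again did not overlap. In males the sow-fed pools (0.712, 0.529 and 0.600) overlapped both those on milk formula (0.816, 0.829 and 0.595) and those on soy formula (0.843, 0.638 and 0.610). Over both sexes the rise on soy formula was 0.61 (SE 0.15; adjusted p = 0.0257). It did not pass with array weights by sex (adjusted p = 0.124), nor without male sow milk replicate 2, male soy formula replicate 1, female sow milk replicates 2 and 3 or female soy formula replicates 2 and 3, each left out alone (adjusted p from 0.0554 to 0.0862). Genes of the UGT2B and alpha-class GST families have near-identical copies, and how far a probe set takes up the RNA of a copy is uncertain.

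In the thioredoxin system, TXNIP fell and TXNRD1 rose. TXNIP encodes a protein that binds reduced thioredoxin and inhibits it, and its transcription follows the glucose supply of the cell. In females it read 1.40, 1.84 and 1.75 on sow milk, 2.31, 1.43 and 1.96 on milk formula, and 1.10, 0.909 and 0.898 on soy formula. In males it read 0.900, 1.18 and 1.04 on sow milk, 0.964, 0.900 and 0.633 on milk formula, and 0.508, 0.374 and 0.395 on soy formula. In both sexes the soy formula pools lay below all pools of the other diets. Against sow milk TXNIP fell by 1.03 (SE 0.15; adjusted p = 3.02e-04), a level 0.488 times that of sow-fed piglets, and the call held in all 25 alternative fits.

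TXNRD1 encodes the cytosolic thioredoxin reductase, a selenoprotein and NRF2 target. In females it read 1.31, 1.19 and 1.06 on sow milk, 1.39, 1.60 and 1.86 on milk formula, and 2.17, 2.28 and 2.04 on soy formula. The order of the 3 diets was that of GSTA4 and UGT2B31, with no overlap. In males the pools read 0.441, 0.468 and 0.442 on sow milk, 0.937, 0.522 and 0.558 on milk formula, and 0.560, 0.471 and 0.618 on soy formula, so both formulas lay above sow milk but 1 soy formula pool only narrowly. The rise on soy formula over both sexes was 0.57 (SE 0.14; adjusted p = 0.0244). It did not pass without male soy formula replicate 3, female sow milk replicate 2 or 3, or female soy formula replicate 1 or 2 (adjusted p from 0.0558 to 0.0760), and the mean of all 3 TXNRD1 probe sets gave 0.37.

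PRDX4 encodes the peroxiredoxin of the endoplasmic reticulum, which removes the hydrogen peroxide made during oxidative protein folding. In females it read 1.51, 1.52 and 1.62 on sow milk, 1.37, 1.23 and 1.17 on milk formula, and 1.17, 1.15 and 1.17 on soy formula. In males it read 0.835, 0.854 and 0.814, then 0.580, 0.758 and 0.602, and then 0.560, 0.349 and 0.509 in the same order of diets. Both formulas lay below sow milk in each sex, and in males soy formula lay below milk formula too. The fall on soy formula was 0.63 on the log2 scale (SE 0.12; adjusted p = 0.00385). A second, dim PRDX4 probe set (median ratio 0.204) did not share it (0.14), and the mean of both gave -0.25 (adjusted p = 0.217).

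TXNDC17 encodes a small cytosolic protein with a thioredoxin fold that is itself reduced by TXNRD1. In females it read 2.10, 1.73 and 1.63 on sow milk, 1.65, 1.86 and 1.97 on milk formula, and 1.26, 1.09 and 1.14 on soy formula, where soy formula lay apart from both other diets. In males the pools overlapped, with 0.911, 0.663 and 0.844 on sow milk, 0.818, 0.734 and 0.728 on milk formula, and 0.811, 0.481 and 0.659 on soy formula. The fall over both sexes was 0.48 (SE 0.13; adjusted p = 0.0466). It passed without male sow milk replicate 2, male milk formula replicate 1 or 3, or male soy formula replicate 1, and did not pass without any 1 of the other 14 arrays (adjusted p from 0.0522 to 0.134). Trended variances ended the call too (adjusted p = 0.0655), as did weighting the arrays by sex (adjusted p = 0.0834).

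A count that needs no model gave a wider group. Pools on soy formula did not overlap with those on sow milk in either sex, and lay on the same side in both, for 9 of the 54 genes, against 3.34% of all probe sets. Shares of non-overlap, here and below, are of all probe sets, most of them dim, whereas most of the 54 genes were not dim. Whether the 54 genes exceed probe sets that were not dim in this count was not tested. GSTA4, TXNRD1, PRDX5 and ALDH18A1 were higher, and TXNIP, PRDX4, PRDX2, TXNDC12 and GSTZ1 were lower. PRDX5, a peroxiredoxin of mitochondria, peroxisomes and cytosol, differed by 0.49 (adjusted p = 0.0935), and ALDH18A1, which makes the precursor of proline, by 0.40 (adjusted p = 0.315). PRDX2, a cytosolic peroxiredoxin, differed by -0.44 (adjusted p = 0.191), and GSTZ1, an enzyme of tyrosine breakdown, by -0.30 (adjusted p = 0.157).

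Between milk formula and sow milk, 2 of the 54 genes passed, both lower on milk formula, and 0.756% of all probe sets did (0.301% lower). Of probe sets with a median ratio of 1 it was 2.49% (0.766% lower), with 2 of the 43 members of that kind (4.65%). The number of the 54 genes that fell was 3 without male milk formula replicate 1, 2 without female soy formula replicate 2, and 0 or 1 without any 1 of the other arrays. ALDH7A1, the enzyme of lysine breakdown that also makes betaine from its aldehyde, read 3, 3.35 and 3.12 in sow-fed females, 2.03, 1.36 and 1.54 in females on milk formula, and 3.58, 2.66 and 3.20 in females on soy formula. In males it read 0.613, 0.582 and 0.451, then 0.365, 0.494 and 0.228, and then 0.502, 0.459 and 0.639. Milk formula lay apart below the other diets in females, while in males 1 of its pools overlapped with them. ALDH7A1 fell by 0.81 (SE 0.17; adjusted p = 0.0245), and its soy formula level differed from that on sow milk by -0.03 (SE 0.17). It did not pass with array weights by sex (adjusted p = 0.0665) or with the pool number as a block (adjusted p = 0.0509), nor without male sow milk replicate 1 or 2, any 1 female sow milk array, or female milk formula replicate 2 or 3 (adjusted p from 0.0523 to 0.0808).

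TXNDC12, an oxidoreductase of the endoplasmic reticulum with a thioredoxin domain, read 1.48, 1.35 and 1.61 in sow-fed females, 1.04, 1.03 and 1.09 on milk formula, and 1.17, 1.32 and 1.22 on soy formula. In males it read 0.869, 0.965 and 0.945, then 0.852, 0.410 and 0.352, and then 0.530, 0.588 and 0.594. Each formula lay below sow milk in each sex. TXNDC12 fell by 0.69 on milk formula (SE 0.16; adjusted p = 0.0486) and differed by -0.48 on soy formula (adjusted p = 0.126). Of the 18 fits that left out 1 array, only that without male milk formula replicate 1 passed, and the other 17 gave an adjusted p from 0.0520 to 0.147. It did not pass with trended variances (adjusted p = 0.0568), with robust variances (adjusted p = 0.0518) or with the pool number as a block (adjusted p = 0.0968). Across the 54 genes, pools on milk formula and sow milk did not overlap in either sex for 3 genes, against 1.71% of all probe sets. TXNDC12 and PRDX4 were lower (0.731% of all probe sets) and TXNRD1 was higher (0.982%).

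Between soy and milk formula, 2 of the 54 genes passed, against 0.66% of all probe sets. Of probe sets with a median ratio of 1 it was 2.32%, with 2 of the 43 members of that kind (4.65%). Without male soy formula replicate 1, 2 genes fell rather than 1. TXNIP fell by 0.95 on soy formula (SE 0.15; adjusted p = 0.00289), with no overlap of pools in either sex, and the call held in all 25 alternative fits. It was the only 1 of the 54 without overlap in both sexes, which held for 1.74% of all probe sets. ALDH7A1 rose by 0.78 (SE 0.17; adjusted p = 0.0341), with 6 of 6 soy formula pools above the mean of the milk formula pools of their sex. That call was lost with quantile normalization (adjusted p = 0.0757), with array weights by sex (adjusted p = 0.0879) and with the pool number as a block (adjusted p = 0.0554). It was also lost without male milk formula replicate 3, male soy formula replicate 3, female milk formula replicate 2 or 3, or any 1 female soy formula array (adjusted p from 0.0541 to 0.106). With array weights not split by sex, and with only the groups compared, 0 of the 54 genes were called higher, so ALDH7A1 did not pass there either. The 3 comparisons share their arrays in pairs, so their values are not independent of each other.

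**Figure D2:**
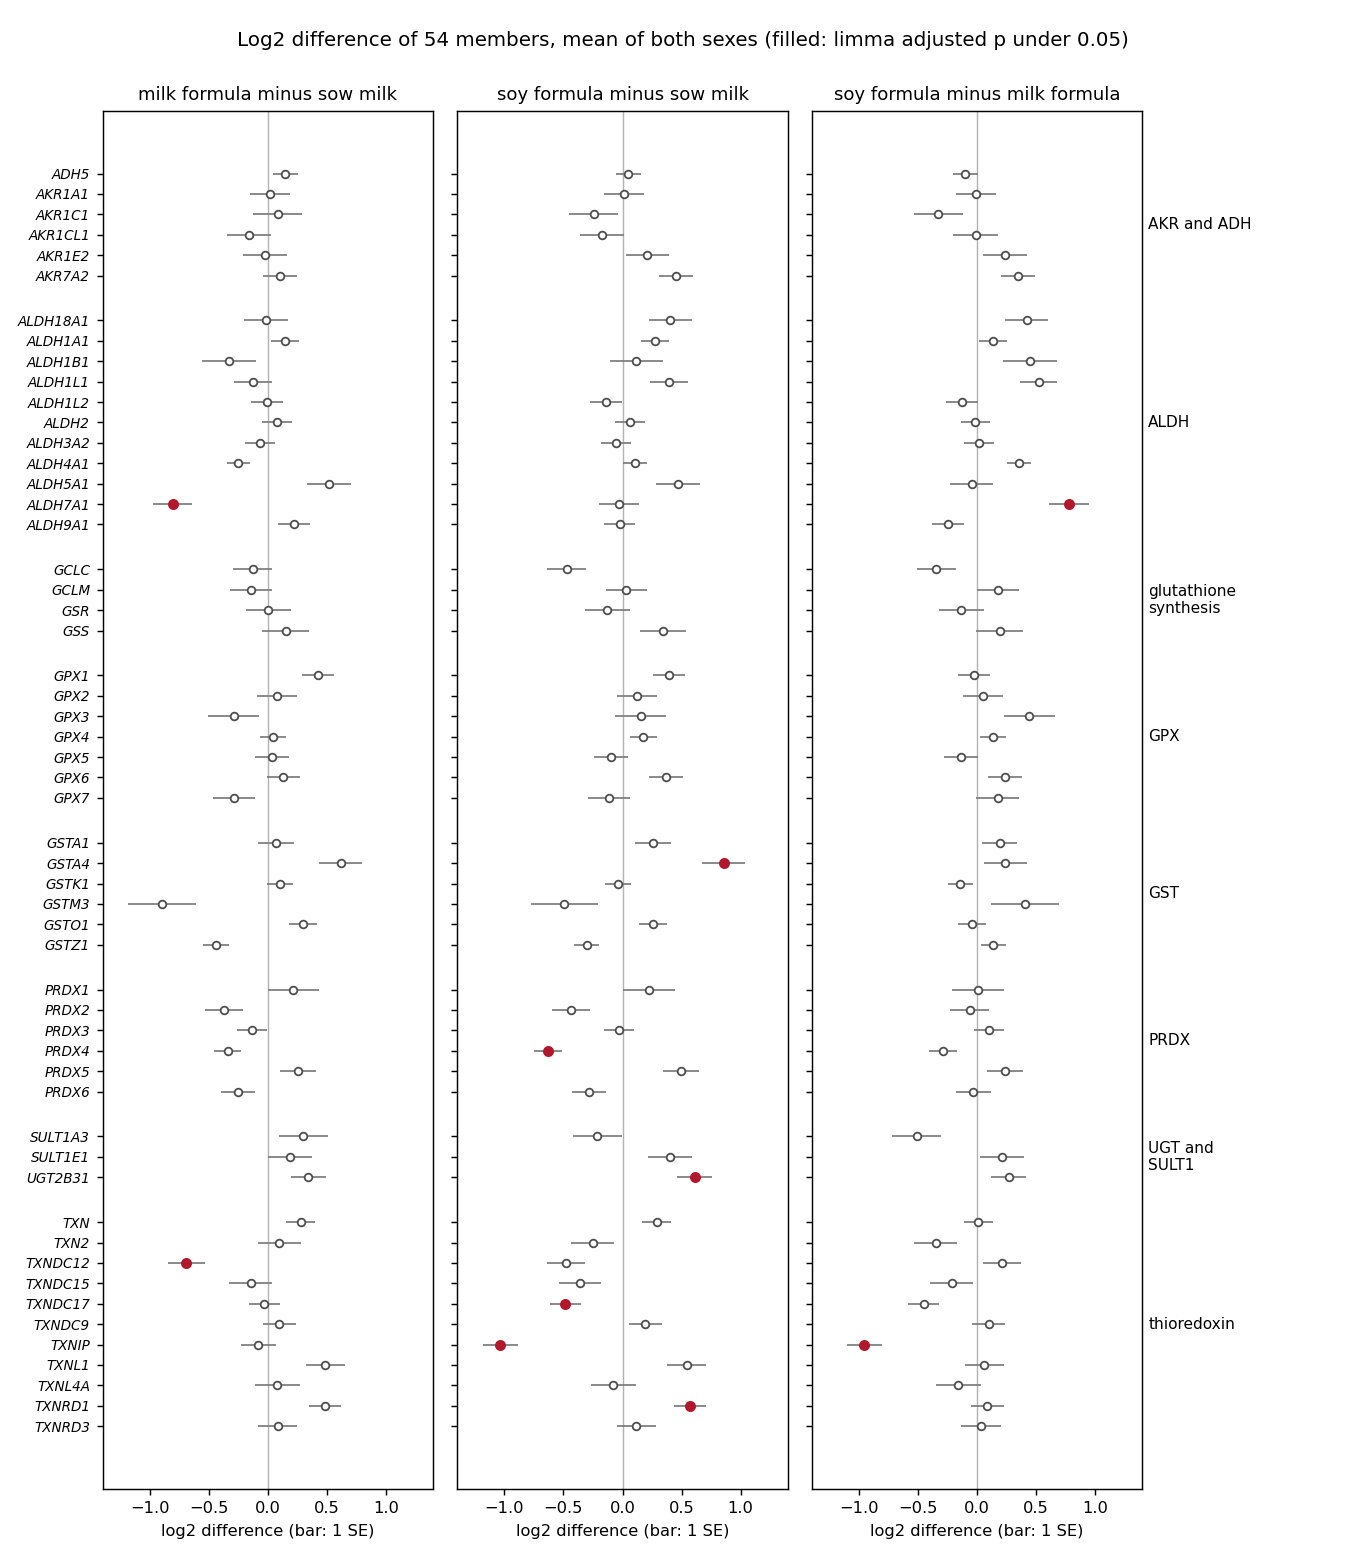
Log2 difference of each of the 54 genes, grouped by family, for the 3 diet comparisons averaged over both sexes; lines are 1 SE, and filled points passed an adjusted p of 0.05. Most points lay within 0.5 of 0, and the filled points were 2, 6 and 2 genes.

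By family, the glutathione transferases held 1 called gene of 6 on soy formula (GSTA4). GSTA1, the main hepatic alpha-class enzyme, differed by 0.26 (SE 0.15) from sow milk, and GSTO1, an omega-class thioltransferase, by 0.26 (SE 0.12). GSTM3, a mu-class enzyme, had the largest difference of the family on milk formula, -0.90 (SE 0.29; adjusted p = 0.21). Its pools ranged widely on soy formula in females (0.366, 1.15 and 0.228) and read 0.579, 0.746 and 0.918 on sow milk and 0.221, 0.320 and 0.229 on milk formula. GSTZ1 differed by -0.44 on milk formula (SE 0.11; adjusted p = 0.0685). Among the sulfotransferases, SULT1E1, which inactivates estrogens, differed by 0.40 (SE 0.19) on soy formula and by 0.19 (SE 0.19) on milk formula. SULT1A3, a sulfotransferase of phenols and catecholamines, had the largest difference of its family between the formulas, -0.51 (SE 0.21; adjusted p = 0.363).

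No aldo-keto reductase or alcohol dehydrogenase passed in a diet comparison over both sexes, with 0 of 6 in each limma fit. The largest difference of that family was 0.45 (SE 0.14; adjusted p = 0.104) for AKR7A2, an aldehyde reductase, on soy formula. AKR1A1, which reduces many aldehydes, differed by 0.01 (SE 0.17), AKR1C1 by -0.24 (SE 0.21), and ADH5, which oxidises the glutathione adduct of formaldehyde, by 0.05 (SE 0.11). Of the 11 aldehyde dehydrogenases only ALDH7A1 passed. ALDH2, the mitochondrial enzyme that clears acetaldehyde, differed by 0.06 (SE 0.13) on soy formula and 0.08 (SE 0.13) on milk formula, and ALDH1A1, a retinal-oxidising cytosolic enzyme, by 0.28 (SE 0.12) and 0.14 (SE 0.12). ALDH5A1, which removes succinate semialdehyde, had the largest difference of its family on soy formula, 0.47 (SE 0.19; adjusted p = 0.22), and differed by 0.52 (SE 0.19) on milk formula.

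For the enzymes that make and recycle glutathione, none of the 4 representing probe sets passed over both sexes. GCLC, the catalytic subunit of glutamate-cysteine ligase, differed by -0.47 on soy formula (SE 0.16; adjusted p = 0.142), and its other probe sets are described further on. GCLM, the modifier subunit, which was dim, differed by 0.03 (SE 0.18), GSR, glutathione reductase, by -0.13 (SE 0.19), and GSS, glutathione synthetase, by 0.34 (SE 0.20). The 7 glutathione peroxidases had 0 called genes as well. GPX1, the abundant cytosolic selenoenzyme, differed by 0.42 on milk formula (SE 0.14; adjusted p = 0.222) and 0.39 on soy formula (SE 0.14; adjusted p = 0.147). GPX4, which reduces lipid hydroperoxides in membranes, differed by 0.18 (SE 0.11) on soy formula, and GPX3, the secreted plasma enzyme, by 0.15 (SE 0.21). Among the peroxiredoxins only PRDX4 passed, and PRDX1, the cytosolic enzyme, differed by 0.22 (SE 0.22) on both formulas. TXN, thioredoxin itself, differed by 0.29 (SE 0.12) on soy formula. The counts of 0 over both sexes come from limma, in which 22 of the 54 genes had an unadjusted p under 0.05 on soy formula against sow milk, 15 on milk formula against sow milk and 10 between the formulas. Of all probe sets, 14.3%, 9.55% and 10.7% did. Shares at an unadjusted p, here and below, are not given for probe sets that were not dim, as most of the 54 genes were not. Whether these families exceed such probe sets at an unadjusted p was not tested.

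Fitted to the 9 female arrays alone, soy formula against sow milk gave 12 called genes of 54, 8 higher and 4 lower, against 6.66% of all probe sets (3.6% higher, 3.06% lower) and 17.2% of those with a median ratio of 1, of which 11 of 43 members passed (25.6%). The genes called over both sexes were all among them. Added to them were TXNL1, AKR7A2, ALDH1A1, TXN and TXNDC9, which rose, and GCLC, which fell. Female pools on soy formula and sow milk did not overlap for 29 of the 54 genes (19 higher, 10 lower). Of all probe sets, dim ones included, it was 25.1% (12.3% higher, 12.8% lower). The counts moved with single arrays: they were 4 or 5 higher without female sow milk replicate 1 or 2 or any 1 soy formula array, and 1 or 2 lower without female sow milk replicate 2 or 3 or soy formula replicate 2 or 3. GSTA4, UGT2B31, TXNL1 and TXNRD1 passed in all 13 alternative fits of this comparison, with an adjusted p of at most 0.0381.

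TXNL1, a thioredoxin-like protein bound to the proteasome, rose by 1.14 in females on soy formula (SE 0.16; adjusted p = 0.00370). Its female pools read 1.23, 1.28 and 1.07 on sow milk, 1.85, 1.63 and 1.97 on milk formula, and 2.62, 3.40 and 2.04 on soy formula, a series with no overlap. The male pools overlapped, with 0.816, 0.453 and 0.494 on sow milk, 0.601, 0.692 and 0.930 on milk formula, and 0.666, 0.450 and 0.548 on soy formula. In females GSTA4 rose by 1.11 (SE 0.12; adjusted p = 6.14e-04), UGT2B31 by 1.04 (SE 0.18; adjusted p = 0.00939) and TXNRD1 by 0.87 (SE 0.12; adjusted p = 0.00293). TXNIP fell by 0.78 (SE 0.17; adjusted p = 0.0239), TXNDC17 by 0.64 (SE 0.11; adjusted p = 0.0102) and PRDX4 by 0.42 (SE 0.08; adjusted p = 0.0160). TXNDC17 kept its call without each array in turn, whereas TXNIP lost it without female sow milk replicate 2 or 3 or soy formula replicate 2 or 3, and PRDX4 without female sow milk replicate 3 or soy formula replicate 2. With 1 spread shared by all 18 arrays TXNIP, TXNDC17 and PRDX4 did not pass within females (adjusted p = 0.0780, 0.115 and 0.378), nor did PRDX4 with trended variances (adjusted p = 0.0509).

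AKR7A2 rose in females by 0.45 (SE 0.09; adjusted p = 0.0187) with pools of 1.05, 1.06 and 0.974 on sow milk and 1.33, 1.38 and 1.50 on soy formula. TXN rose by 0.40 (SE 0.10; adjusted p = 0.0379) and read 1.20, 1.21 and 1.36 on sow milk against 1.63, 1.74 and 1.59 on soy formula and 1.69, 1.45 and 1.76 on milk formula, so both formulas lay above sow milk. ALDH1A1 rose by 0.43 (SE 0.11; adjusted p = 0.0457), and TXNDC9, a thioredoxin-domain protein that binds the chaperonin of the cytosol, rose by 0.41 (SE 0.10; adjusted p = 0.0350). Each of these calls was lost without some single arrays. For AKR7A2 these were female sow milk replicates 1 and 3 and soy formula replicates 2 and 3 (adjusted p from 0.0503 to 0.0682). For TXN and TXNDC9 they were female sow milk replicates 1 and 2 and each soy formula array (adjusted p from 0.0763 to 0.122 and from 0.0792 to 0.109). For ALDH1A1 they were each sow milk and soy formula array and female milk formula replicate 2 (adjusted p from 0.0563 to 0.146). TXN, TXNDC9 and ALDH1A1 were also lost with trended variances (adjusted p = 0.0831, 0.0621 and 0.0740) and with the replicate block (adjusted p = 0.0623, 0.0641 and 0.0820). With 1 spread shared by all 18 arrays, AKR7A2, TXN, TXNDC9 and ALDH1A1 did not pass either, with an adjusted p from 0.354 (ALDH1A1) to 0.595 (TXNDC9).

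GCLC had its highest female values on milk formula (3.69, 3.39 and 2.46), lower ones on sow milk (2.29, 2.42 and 2.29) and its lowest on soy formula (1.85, 1.03 and 1.34), with no overlap. It fell by 0.77 on soy formula against sow milk (SE 0.20; adjusted p = 0.0471) and by 1.19 against milk formula (SE 0.20; adjusted p = 0.0185). In males the order differed, with 0.575, 0.965 and 0.824 on sow milk, 0.561, 0.408 and 0.482 on milk formula, and 0.556, 0.770 and 0.734 on soy formula. Against sow milk the female call was lost without any 1 sow milk array, milk formula replicate 2 or soy formula replicate 2 or 3 (adjusted p from 0.0636 to 0.135) and with 1 spread shared by all 18 arrays (adjusted p = 0.138), and against milk formula without female milk formula replicate 1 or 2 or soy formula replicate 3 (adjusted p from 0.0541 to 0.0731).

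**Figure D3:**
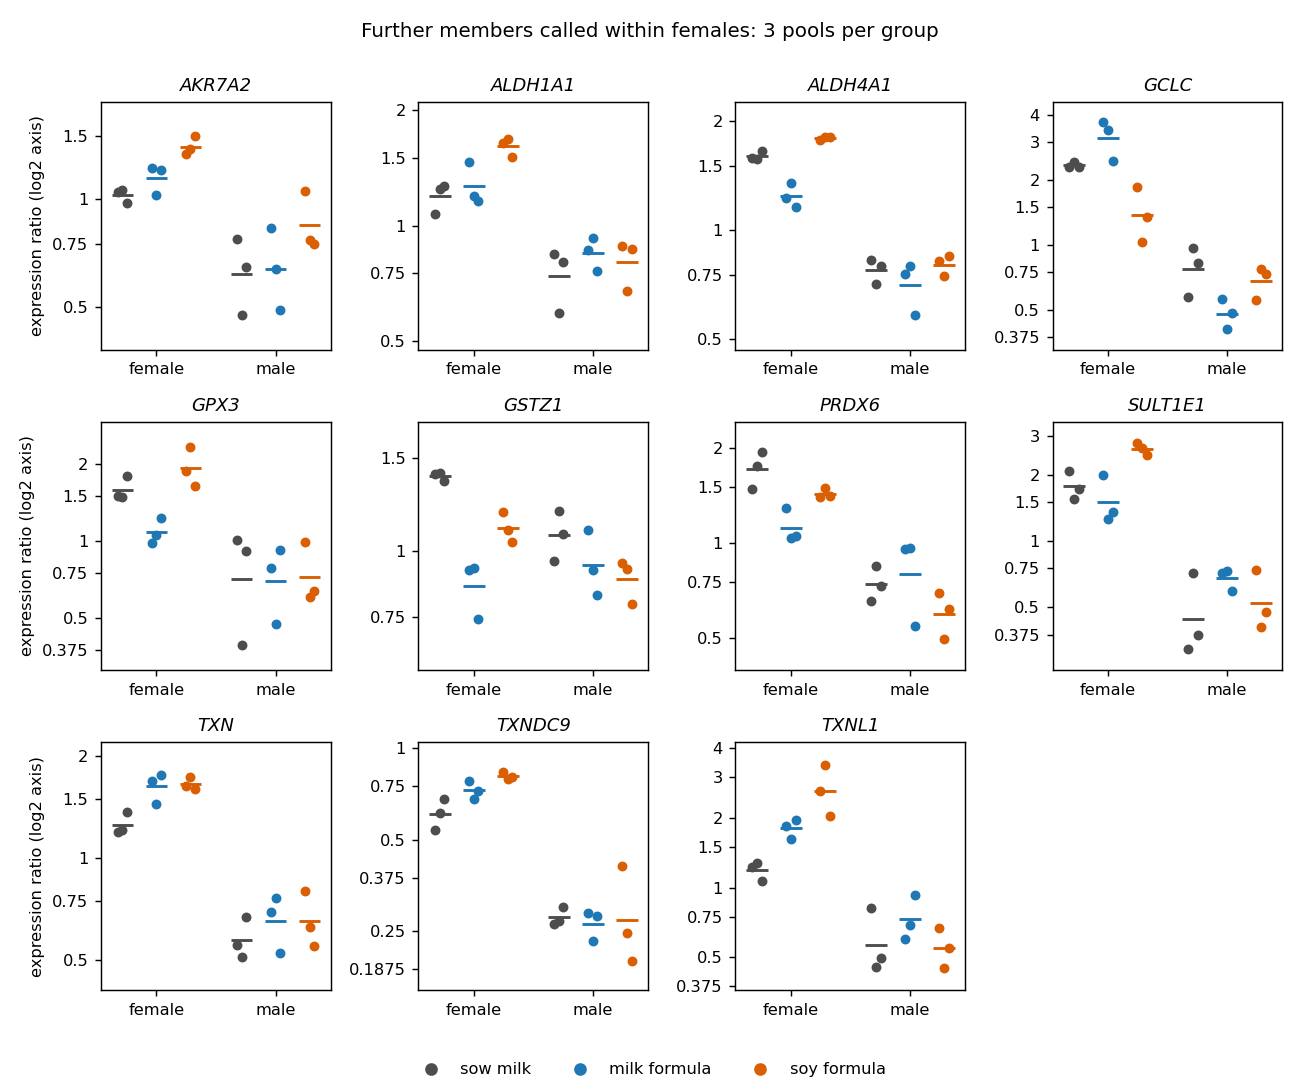
Deposited ratio (log2 axis) of the 11 further genes past the threshold in a comparison fitted to the female arrays alone, by sex and diet; points are the RNA pools, 3 per group, and each bar is the mean of their log2 ratios. TXNL1 read lowest on sow milk and highest on soy formula in females, and GCLC was lowest on soy formula in females and lowest on milk formula in males.

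Between soy and milk formula, 8 of the 54 genes passed in females (5 higher, 3 lower), against 2.25% of all probe sets. Of probe sets with a median ratio of 1 it was 5.69%, with 8 of the 43 members of that kind (18.6%). GPX3 rose by 0.83 (SE 0.14; adjusted p = 0.0185) and read 1.86, 2.33 and 1.64 on soy formula, 0.983, 1.05 and 1.22 on milk formula and 1.49, 1.48 and 1.79 on sow milk, so it was lowest on milk formula. ALDH4A1, which oxidises a product of proline, had the same order: it rose by 0.53 (SE 0.08; adjusted p = 0.0142) from 1.23, 1.35 and 1.15 on milk formula to 1.77, 1.80 and 1.81 on soy formula, and read 1.58, 1.56 and 1.65 on sow milk. ALDH7A1 rose by 0.94 (SE 0.15; adjusted p = 0.0163), SULT1E1 by 0.80 (SE 0.17; adjusted p = 0.0384) and GSTA4 by 0.58 (SE 0.12; adjusted p = 0.0318). TXNIP fell by 0.95 (SE 0.17; adjusted p = 0.0232) and TXNDC17 by 0.65 (SE 0.11; adjusted p = 0.0211), as did GCLC. SULT1E1 lost its call without female sow milk replicate 2 or 3, milk formula replicate 2 or 3 or any 1 soy formula array (adjusted p from 0.0517 to 0.129), and GSTA4 without milk formula replicate 2 or 3 or any 1 soy formula array (adjusted p from 0.0520 to 0.113). Quantile normalization ended both (adjusted p = 0.0712 and 0.0505), and the replicate block that of GSTA4 (adjusted p = 0.0550). GPX3 lost its call without milk formula replicate 1 or 2 or soy formula replicate 2, TXNDC17 without milk formula replicate 2 or soy formula replicate 2 or 3, and TXNIP without milk formula replicate 1 or soy formula replicate 2 or 3 (adjusted p from 0.0518 to 0.0795 over these fits). ALDH4A1 lost it without soy formula replicate 2 or 3 and ALDH7A1 without milk formula replicate 2 or soy formula replicate 3 (adjusted p from 0.0503 to 0.0558). With 1 spread shared by all 18 arrays only GCLC passed, and the other 7 had an adjusted p from 0.0691 (TXNIP) to 0.781 (GSTA4).

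Female pools on the formulas did not overlap for 21 genes, against 19.1% of all probe sets, dim ones included. Of these genes 18 were higher on soy formula and 3 lower, against 10.2% and 8.92% of all probe sets. The count of genes called higher was 1 without female milk formula replicate 2 or soy formula replicate 2 or 3, and that of genes called lower was 1 or 0 without female milk formula replicate 1 or 2 or soy formula replicate 2 or 3.

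Between milk formula and sow milk, 4 of the 54 genes passed in females, all lower, against 0.74% of all probe sets (0.401% lower). Of probe sets with a median ratio of 1 it was 2.26% (1.13% lower), with 4 of the 43 members of that kind (9.3%). GSTZ1 fell by 0.69 (SE 0.10; adjusted p = 0.0160) from 1.40, 1.41 and 1.36 to 0.921, 0.928 and 0.743. PRDX6, a peroxiredoxin that also has phospholipase activity, fell by 0.61 (SE 0.12; adjusted p = 0.0499) from 1.48, 1.75 and 1.93 to 1.28, 1.03 and 1.05, and read 1.40, 1.49 and 1.41 on soy formula. ALDH7A1 fell by 0.96 (SE 0.15; adjusted p = 0.0225) and TXNDC12 by 0.49 (SE 0.09; adjusted p = 0.0425). The TXNDC12 call was lost without any 1 female array (adjusted p from 0.0563 to 0.140) and held in 1 of 13 alternative fits. PRDX6 lost its call without female sow milk replicate 2 or 3, milk formula replicate 2 or 3 or any 1 soy formula array (adjusted p from 0.0729 to 0.178), and ALDH7A1 without any 1 sow milk array or milk formula replicate 2 or 3 (adjusted p from 0.0640 to 0.0955). GSTZ1 lost it without any 1 sow milk array (adjusted p from 0.0519 to 0.0703). Trended variances and the replicate block ended the calls of PRDX6 (adjusted p = 0.0634 and 0.114) and TXNDC12 (0.0970 and 0.0887), and with 1 spread shared by all 18 arrays none of the 4 passed in limma (adjusted p from 0.0628 for GSTZ1 to 1 for TXNDC12). In none of these 4 genes did the groups overlap, which held for 16 of the 54 (8 higher, 8 lower). Of all probe sets, dim ones included, it held for 14.3% (6.44% higher, 7.9% lower). The count of genes called lower was 3 without milk formula replicate 1 or soy formula replicate 2, and from 0 to 2 without any 1 of the other female arrays.

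In males alone, 1 of the 54 genes passed, TXNIP, which fell by 1.29 on soy formula against sow milk (SE 0.24; adjusted p = 0.0414), against 0.284% of all probe sets. Of probe sets with a median ratio of 1 it was 1.13%. The TXNIP call was lost in 8 of the 9 fits that left out 1 male array, and held only without male milk formula replicate 3 (adjusted p from 0.0566 to 0.175 in the others). It was also lost with the pool number as a block (adjusted p = 0.0832). No gene passed in males between milk formula and sow milk (0.0961% of all probe sets, 0.0794% higher and 0.0167% lower) or between the formulas (0% of all probe sets), where limma gave 6 and 3 genes (11.1% and 5.56%) with an unadjusted p under 0.05, against 6.09% and 6.18% of all probe sets. Male pools on soy formula and sow milk did not overlap for 10 genes, against 12% of all probe sets. Those on milk formula and sow milk did not overlap for 8, against 11%, and those on the formulas for 3, against 10.7%.

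Of the 12 genes called in females on soy formula, 10 differed in the same direction in males, and for 4 the male pools did not overlap either. The exceptions in direction were TXNL1 (-0.05 in males, SE 0.28) and TXNDC9 (-0.03, SE 0.26). PRDX4 and TXNIP differed by more in males, by -0.85 (SE 0.23) and -1.29 (SE 0.24), and UGT2B31 and TXNRD1 by less, by 0.18 (SE 0.24) and 0.28 (SE 0.25). Over all 54 genes the differences of the sexes on soy formula had a Pearson correlation of 0.432 and the same sign in 36 genes (66.7%), against 55.2% of all probe sets. For milk formula against sow milk these were 0.418 and 30 genes (55.6%, against 54.4%), and between the formulas 0.236 and 28 genes (51.9%, against 52.6%). These correlations are across genes measured on the same arrays and are given as a description. No diet difference of the 54 was shown to differ between the sexes: limma called 0 genes for each of the 3 interactions of sex and diet, with 6, 8 and 11 genes (11.1%, 14.8% and 20.4%) at an unadjusted p under 0.05, against 5.67%, 7.79% and 7.4% of all probe sets. Of all probe sets 0.00418%, 0.0125% and 0% were called for these interactions.

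**Figure D4:**
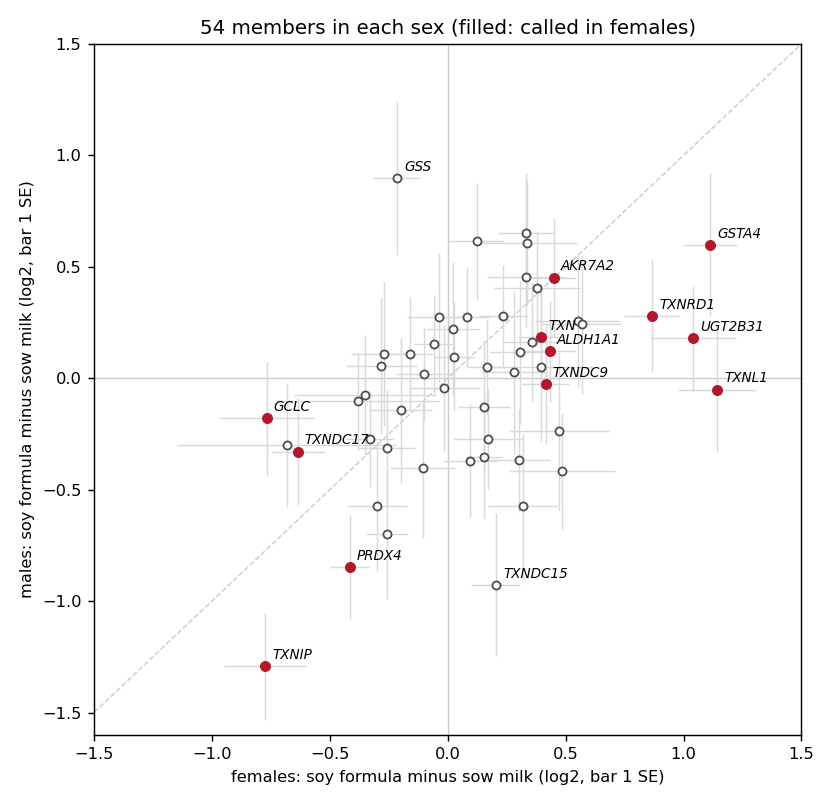
Log2 difference between soy formula and sow milk in females (horizontal axis) and males (vertical axis) for the 54 genes; filled points passed an adjusted p of 0.05 in females. TXNIP and PRDX4 lay low on both axes and GSTA4 high on both, whereas TXNL1 lay at 1.14 in females and -0.05 in males.

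The other probe sets of these genes gave part of the same picture. In 23 of the 54 genes more than 1 probe set was present, and 5 of the 33 that did not represent their gene passed on soy formula against sow milk, where 3.28% of all probe sets passed. The second UGT2B31 probe set rose by 0.90 (SE 0.23; adjusted p = 0.0353), and a second TXNRD1 probe set by 0.64 (SE 0.15; adjusted p = 0.0257), while the remaining, dim one (median ratio 0.213) differed by -0.11. Both further TXNL1 probe sets rose, by 0.81 (SE 0.13; adjusted p = 0.00108) and 0.56 (SE 0.15; adjusted p = 0.0420), where the representing one missed the threshold at 0.55 (SE 0.17; adjusted p = 0.0858). In males these further TXNL1 probe sets differed by 0.64 (SE 0.25) and 0.71 (SE 0.27), not by -0.05, so the probe sets of this gene disagreed on the male difference.

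GCLC had 5 probe sets, all of them lower on soy formula than on sow milk in both sexes. The one that passed over both sexes fell by 0.89 (SE 0.17; adjusted p = 0.00460), with -0.67 (SE 0.20) in females and -1.11 (SE 0.26) in males. The other 4 differed by -0.63, -0.47, -0.33 and -0.22. The same probe set fell by 0.75 (adjusted p = 0.0460) between the formulas. ALDH7A1 had a second probe set that fell by 0.79 on milk formula in females (SE 0.15; adjusted p = 0.0420) and differed by -0.24 (SE 0.32) in males. Counting a gene by any of its probe sets, 8 genes passed on soy formula against sow milk rather than 6, a count in which a gene with several probe sets has several chances.

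**Figure D5:**
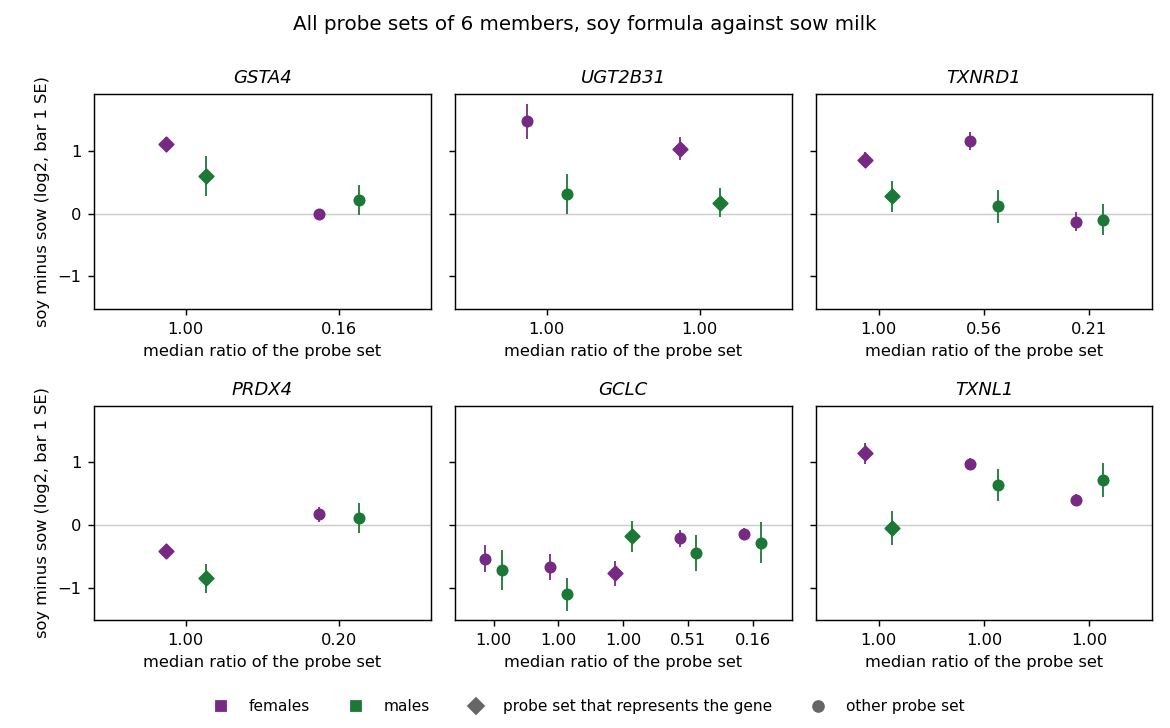
Log2 difference between soy formula and sow milk for every probe set of GSTA4, UGT2B31, TXNRD1, PRDX4, GCLC and TXNL1, by sex, with lines of 1 SE; the horizontal labels give the median ratio of the probe set and diamonds mark the one that represents the gene. Probe sets with a median ratio near 0.2 or below lay close to 0 for GSTA4, PRDX4 and TXNRD1, and all 5 of GCLC lay below 0 in both sexes.

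Other genes of these pathways were counted in 8 lists with 93 of 143 symbols measured. On soy formula against sow milk, 1.52% of all probe sets rose and 1.75% fell. Of those with a median ratio of 1, as 19 of 21 phase I genes had, 4.65% rose and 5.63% fell. Of the 21 phase I genes, 5 rose and 0 fell. The rises were 2.80 for CYP3A29 (SE 0.22), 1.68 for CYP1A1 (SE 0.23), 1.65 for CYP3A46 (SE 0.20) and 1.64 for CYP2D25 (SE 0.12), so that these cytochromes P450 differed by more than any of the 54 conjugating and redox genes. Of 13 further NRF2 targets 5 rose, among them NQO1, a quinone reductase (0.97, SE 0.25), and the pentose phosphate enzymes PGD (0.86, SE 0.17) and TKT (0.73, SE 0.12), and FTL, ferritin light chain, fell by 1.18 (SE 0.16). Among 17 genes of glutathione supply and turnover, AHCY (0.93, SE 0.15), MGST1 (0.71, SE 0.17) and GLRX (0.53, SE 0.12) rose and MGST3 fell by 0.66 (SE 0.15). Of 8 transporters the exporters ABCB1 and ABCB11 and the bile acid importer SLC10A1 rose, by 0.68, 0.56 and 0.59. The 13 other antioxidant enzymes had 0 calls, SULT2A1 fell by 0.54 among 9 genes of other conjugation and cofactor supply, and 2 of 3 metallothioneins fell (MT3 by 1.77, MT1A by 0.72). Of 9 xenobiotic and redox sensors HNF4A rose, by 1.20.

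On milk formula against sow milk, CYP3A29 rose by 1.68 (SE 0.22), CYP2D25 by 0.61 (SE 0.12), HNF4A by 0.96, TKT by 0.60 and MT1A by 1.08, and SULT2A1 fell by 0.68. No gene of the lists of glutathione supply, other antioxidant enzymes or transporters passed there, where 0.756% of all probe sets did. Between soy and milk formula CYP3A29, CYP3A46 and CYP2D25 rose by 1.12, 0.99 and 1.02, CTH, which makes cysteine from cystathionine, by 1.12, and the exporter ABCG2 by 0.81. FTL fell by 1.18 and all 3 metallothioneins were lower, where 0.401% of all probe sets were called lower. MT3 fell by 3.17, MT1A fell by 1.80 and MT-2B fell by 1.18.

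Some markers of other liver cells moved with soy formula. Against sow milk, none of the 6 cholangiocyte, 7 T cell, 2 B cell and 5 neutrophil markers passed over both sexes, all of them dim. Of 6 macrophage markers 4 fell against sow milk, where 1.75% of all probe sets and 5.63% of those with a median ratio of 1 fell. The summed ratio of the 6 ran from 4.86 to 6.39 in females on soy formula against 8.68 to 10.6 on sow milk. In males it ran from 2.99 to 3.79 against 4.32 to 5.47. Of 7 endothelial markers 3 fell, with sums of 5.24 to 6.15 against 8.11 to 9.32 in females and 2.79 to 3.64 against 4.22 to 5.30 in males. Between soy and milk formula 4 of the 6 macrophage markers fell as well, with a median of -0.82, beside the fall of TXNIP. Of all probe sets 0.401% fell there. In females alone 4 of 6 macrophage and 2 of 7 endothelial markers fell between the formulas, against 0.806% of all probe sets. Of 8 stellate and fibroblast markers DCN fell on soy formula against sow milk, by 1.04. The sum of 4 erythroid markers in females ran from 1.86 to 3.22 on sow milk, 3.62 to 16.6 on milk formula and 2.67 to 9.14 on soy formula. HBB alone of the 4 passed in females on soy formula, and rose by 0.85 against sow milk and by 0.93 against milk formula. The median difference of the 4 was 0.89 against sow milk but -0.72 against milk formula. In males the erythroid sums ran from 2.30 to 2.51, 2.70 to 3.47 and 2.46 to 4.28 in the same order of diets. The summed ratio of the 11 hepatocyte markers ran from 13.8 to 15.1 on soy formula and from 14.6 to 15.9 on sow milk in females, and from 7.40 to 8.90 and 7.77 to 9.65 in males, and HNF4A rose and SERPINA1 fell among them. In bulk tissue, fewer cells of a type and less RNA per cell cannot be told apart. The part of these shifts in the differences of the 54 genes was not tested. Of the control probe sets for RNA ends, the 3′ minus 5′ difference of actin in females ran from 0.12 to 0.35 (log2) on soy formula and from 0.04 to 0.11 on sow milk, without overlap, and from 0.02 to 0.26 on milk formula. That of GAPDH ran from 0.18 to 0.32 on soy formula and from -0.01 to 0.24 on sow milk. In males the actin difference ran from -0.11 to 0.03 on soy formula and from -0.44 to -0.03 on sow milk. The part of these values in the diet differences was not tested.

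Male arrays read lower than female arrays for 46 of the 54 genes and higher for 3 (ALDH1L2, GPX2 and GPX6), with a median difference of -0.97, where 62.6% of all probe sets passed (36.8% lower, 25.8% higher). With quantile normalization 24 were lower and 5 higher, and the median difference was -0.31. Among probe sets with a median ratio of 1, 83.6% were lower on male arrays, as were 41 of the 43 genes of that kind. Since sex and array processing cannot be told apart, no sex difference of these genes is drawn from these arrays.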

How the data were processed

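Liver RNA pools were measured on porcine Affymetrix arrays, and the values used are the linear expression ratio per probe set and array deposited by the authors. GCOS and RMA are named per the submitters' processing notes, with versions, annotation and divisor not given in the sources used here. Of 23935 probe sets left after 188 controls were set aside, 10069 name 1 gene, 198 several and 13668 none, by the platform annotation, and genes were named from the first kind. All 18 columns were matched to samples by their labels.

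The log2 ratios were fitted in limma 3.58.1 (R 4.3.3) with 1 mean per group, lmFit and eBayes. Comparisons over both sexes, interactions and male against female used all 18 arrays, and comparisons within a sex the 9 arrays of that sex. Benjamini-Hochberg adjustment ran over all probe sets within each comparison, with a threshold of 0.05, and the fit was tested on simulated data. Figures were drawn with matplotlib 3.10.9 from tables read with pandas 2.3.3 and numpy 2.4.6 (Python 3.11.15).

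The members, gene lists and tests were chosen with earlier results of these data known. Members are named where called over both sexes, where among 27 listed genes (21 measured), or where largest in their family, and up to 4 called genes per list and comparison. Members called within a sex, and markers, were named after their values were seen. 1 probe set with several TXNL4B entries was left out.

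Pool numbers do not pair samples: arrays of the same number and sex had a median residual correlation of -0.008, and 4 of 18 correlated best with their own number. The highest correlation between arrays was 0.983, and 0 arrays were identical. Counts and called members were recomputed with other scaling, variance, weighting, blocking and probe set choices and without each array in turn.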

Additional observations from a re-analysis of the deposited data

Results flagged for a closer look

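In 17 cases the 3 female arrays of a diet lay on one side of the mean of the other diet and the 3 male arrays on the opposite side. The same count is not given for all probe sets. Whether 17 cases are more than other genes would give was not tested. The difference between the sexes was tested in each as the interaction of sex and diet in limma, given here as male minus female difference on the log2 scale, and none passed the adjusted threshold.

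For milk formula against sow milk there were 3 such genes. GCLC had an interaction of -1.11 (adjusted p = 0.592), from 0.42 in females and -0.68 in males. TXN2, the mitochondrial thioredoxin, had 0.57 (adjusted p = 0.931), and TXNL4A, a spliceosome protein with a thioredoxin fold, had 0.52 (adjusted p = 0.954).

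For soy formula against sow milk there were 8. Male minus female values were -1.13 for TXNDC15 (adjusted p = 0.394), -0.90 for GCLM (adjusted p = 0.531), -0.89 for GSR (adjusted p = 0.589), -0.71 for ALDH1B1 (adjusted p = 0.757), -0.67 for PRDX3 (adjusted p = 0.514), -0.51 for GPX5 (adjusted p = 0.714) and -0.46 for ALDH1L2 (adjusted p = 0.731). GSS stood on the opposite side with 1.11 (adjusted p = 0.475), from -0.22 in females and 0.90 in males.

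Between soy and milk formula there were 6. GCLC had the largest, 1.70 (unadjusted p = 5.52e-05, adjusted p = 0.165), from -1.19 in females and 0.50 in males. These values are of its representing probe set, which differed by -0.34 over both sexes. The other GCLC probe sets differed by -0.75, -0.66, -0.38 and -0.09. TXNL1 had -0.95 (adjusted p = 0.492), TXNDC15 -0.89 (adjusted p = 0.581), PRDX6 -0.77 (adjusted p = 0.542), TXNRD1 -0.67 (adjusted p = 0.579) and ALDH3A2, which oxidises fatty aldehydes, -0.57 (adjusted p = 0.639). The TXNL1 probe sets disagreed in males on soy formula against sow milk, as described above.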

How the results depend on the processing

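Among the 10 calls over both sexes none changed direction in 25 alternatives each, and TXNIP and GSTA4 against sow milk and TXNIP between the formulas passed in all 25. Array weights not split by sex, and fits to only the groups compared, were not among these 25. Counts of members called moved as follows. Against sow milk on milk formula, the 2 lower were 1 with trended or robust variances, with array weights, with array weights by sex and with only the groups compared, and the 0 higher were 1 with the mean of all probe sets. Between the formulas, the 1 higher was 0 with quantile normalization, with both kinds of array weights and with only the groups compared. The replicate block uses the pool numbers, which are not said to pair samples. With it the counts were 0 lower on milk formula, 0 higher between the formulas, 2 lower on milk formula in females and 0 lower on soy formula in males. The block moved no other count by more than 1.5 times.

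Within females, trended variances gave 2 lower on milk formula and 5 higher on soy formula, and quantile normalization gave 3 higher on milk formula against sow milk and 3 higher between the formulas. With 1 spread shared by all 18 arrays, females had 0 lower on milk formula, 4 higher and 0 lower on soy formula, and 0 higher and 1 lower between the formulas, while males had 2 lower on soy formula and 1 lower between the formulas. Between male and female arrays, quantile normalization gave 5 higher and 24 lower. For the gene lists, pathway genes lower on milk formula were 3 with quantile normalization and 3 with the mean of all probe sets, marker genes lower there were 1 with either, and marker genes higher were 2 with that mean on milk formula and 2 on soy formula. The causes were not tested.

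Leaving out 1 array at a time gave ranges, over both sexes, of 0 to 1 higher and 0 to 3 lower on milk formula, 1 to 5 higher and 2 to 4 lower on soy formula, and 0 to 1 higher and 1 to 2 lower between the formulas. In females the ranges were 0 to 3 lower on milk formula, 4 to 9 higher and 1 to 5 lower on soy formula, and 1 to 5 higher and 0 to 3 lower between the formulas. In males on soy formula the range was 0 to 1 lower. A filter that left out the dimmest 40% of probe sets kept 51 members and moved no count by more than 1.5 times. That cut is not the median ratio below 1 that is called dim above, which held for 11 of the 54 genes. All values rest on 3 pools per group.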
